A study of Mus musculus with 112 samples.

Results

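A set of genomic regions that carried a called peak of RNA polymerase II (Pol II) phosphorylated at serine 2 (Ser2P) before, and not after, degradation of the U1 snRNP protein SNRNP70 is described. Members were selected on the readout itself. They are the peaks of the 0 h Ser2P list that share not 1 base with any peak of the 4 h Ser2P list, which gave 2543 members of 5915 peaks. The other 3372 peaks of the 0 h list, which had at least 1 base in common with a 4 h peak, are called shared peaks. Because the rule used both Ser2P lists, the number of members and their widths, scores and gaps to 4 h Ser2P peaks are a description. The peak lists of Pol II phosphorylated at serine 5 (Ser5P) came from other libraries, which the rule did not use.

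The series asked how U1 snRNP acts on noncoding RNA, in embryonic stem cells of the mouse. Of its 112 samples, 4 chromatin immunoprecipitation (ChIP-seq) libraries are used here, all from 46C mES cells of strain 129/Ola that carry SNRNP70 fused to an auxin-inducible degron (AID). Both 4 h libraries came from SNRNP70-AID cells kept in 500 µM IAA, an auxin that triggers degradation of degron-tagged proteins, for 4 h, and both 0 h libraries came from SNRNP70-AID cells with no IAA. Cells of both times thus carry the degron, and whether the line is 1 clone is not stated in the labels. Each combination of antibody and time is 1 library with 1 peak list, so no difference between times or between sets of peaks has a replicate check, and none was tested.

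Pol II carries a repeated tail whose serines are phosphorylated as transcription proceeds. Ser5P marks polymerase near the start of genes, where initiation and promoter-proximal pausing take place, and Ser2P builds up along gene bodies and is highest near 3′ ends, where it helps to recruit the cleavage and polyadenylation machinery. U1 snRNP recognises 5′ splice sites, and it also restrains the use of early polyadenylation sites inside introns, a function called telescripting. SNRNP70 is one of its core proteins.

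The Ser2P lists held 7090 peaks over 12405678 bases at 4 h and 5915 peaks over 8801392 bases at 0 h. Ser5P peaks numbered 16216 over 29739944 bases at 4 h and 14809 over 24871313 bases at 0 h. The lowest score was 50 in each list to the nearest whole number, and the sources used here do not say what the score measures. It is the authors' value for a peak and is compared only within a list. Read depth is unknown, since the lists hold no read counts. A region without a peak may therefore have lain just under the calling threshold or have been read less deeply, and these cannot be told apart from less Ser2P.

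Members made up 43% of the 0 h Ser2P peaks but 28.5% of the bases that list covers, since they were the smaller peaks. Their median width was 813 bp (quartiles 674 and 1093, range 289 to 6773 bp), against 1351.5 bp in shared peaks (quartiles 869 and 2306, range 307 to 20123 bp). Their median score was 64.6, with quartiles of 55.4 and 89.4, against 122 in shared peaks, with quartiles of 69.5 and 279. Most members thus had scores close to the lowest in the list, and the share of members declined along both measures. When the 0 h list was cut into 10 parts of about equal size by score, 70.3% of peaks in the lowest part were members, whereas in the highest part, with scores from 414.54 to 3193.79, 18 of 592 peaks were members, or 3.04%. Cut by width in the same way, 68.1% of the narrowest part and 5.41% of the widest part were members.

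**Figure D1:**
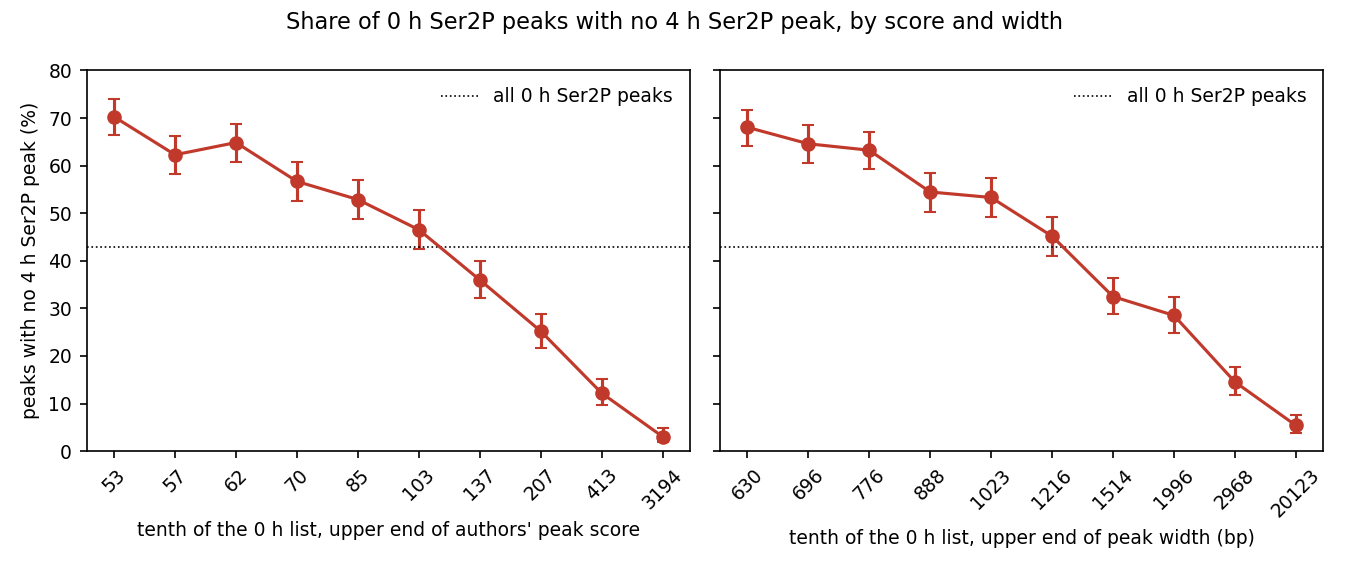
Share of 0 h Ser2P peaks with no overlapping 4 h Ser2P peak (y axis, %) in 10 parts of the list by the authors' score (left) and by width in bp (right). A part is marked on the x axis by its upper end. Bars are exact 95% binomial intervals for counting error, and the dotted line is the share over all 0 h peaks, 43%. The share goes down to 3.04% in the highest part by score and to 5.41% in the widest part.

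How far members lay from 4 h Ser2P signal varied over several orders of magnitude. The median gap to the nearest 4 h Ser2P peak was 9498.5 bases, with quartiles of 1630 and 51782 bases. Within 1 kb of a 4 h peak lay 455 members, or 17.9%, 1 of them directly next to it. A further 838 lay 1 to 10 kb away, 809 lay 10 to 100 kb away and 441 lay over 100 kb away, the last including 1 member on a sequence with no 4 h peak. The rule therefore joined close neighbours of 4 h peaks with regions far from any: counting a 4 h peak within 10 kb as shared would leave 1250 members, 21.1% of the 0 h list. The 4060 peaks of the 4 h list without a 0 h overlap, 57.3% of that list, had a median gap of 10838 bases to the nearest 0 h peak, and their median width of 942 bp and median score of 66.1 were also low within their list.

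**Figure D2:**
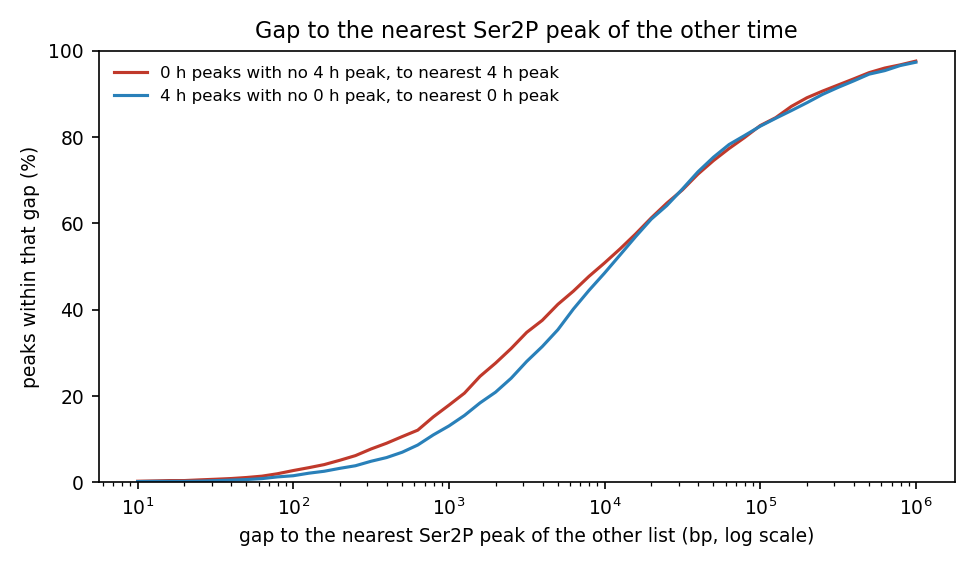
Cumulative share of peaks (y axis, %) within a given gap (x axis, bp, log scale) of the nearest Ser2P peak of the other list. The red line is the 2543 peaks only at 0 h and the blue line the 4060 peaks only at 4 h. The medians are 9498.5 bases for peaks only at 0 h and 10838 bases for peaks only at 4 h.

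Width and score hardly differed with that gap. From the nearest class to the farthest, median widths were 835, 818, 821 and 768 bp and median scores were 65.2, 65.0, 65.4 and 62.1. What differed was the company: 81.8% of the members within 1 kb of a 4 h peak had another 0 h Ser2P peak within 10 kb, against 24.9% of the members over 100 kb from a 4 h peak. Members far from any 4 h peak were thus mostly single peaks. The rule sets part of this contrast, since a shared peak overlaps a 4 h peak. A member over 100 kb from any 4 h peak can have only other members within 10 kb, while one within 1 kb can have both kinds.

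At the boundary of the rule, the 3 members nearest to a 4 h peak and the 3 shared peaks with the least overlap had similar scores. The member at chr15:75726326-75727031 touched a 4 h peak without sharing a base and scored 59.0. Those at chr5:122621004-122622161 and chr17:47470315-47470972 were 2 and 3 bases from a 4 h peak and scored 70.3 and 55.5. Just outside, chr9:78059216-78059940 shared 1 base with a 4 h peak and scored 64.0. Overlaps of 5 bases placed chr4:147376325-147377455, with a score of 65.4, and chr6:34891947-34892996, with a score of 88.0, among the shared peaks.

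The highest-scoring member was chr13:98583201-98589884, 6684 bp wide with a score of 1206, which ranked 146 in the 0 h list. No 4 h Ser2P peak lay within 308553 bases of it, yet Ser5P peaks covered 48.5% of it at 4 h and 100% of it at 0 h. The second, chr14:22265207-22269504, was 4298 bp wide with a score of 930 and lay 181 bases from a 4 h Ser2P peak, with no Ser5P peak over it at either time. The fourth, chr7:17020107-17023403, had a score of 678, lay 31952 bases from a 4 h Ser2P peak and also had no Ser5P peak at either time. These 3 regions thus lay at very different distances from 4 h Ser2P, and Ser5P peaks covered the first of them alone.

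Some top members had a Ser5P peak at 0 h and none at 4 h. At chr3:41285541-41289838 (score 676, 77604 bases from a 4 h Ser2P peak), Ser5P peaks covered none of the region at 4 h and 59.8% of it at 0 h. At chr10:127514327-127517196 (score 620, 6458 bases from a 4 h Ser2P peak) they covered none at 4 h and 58.7% at 0 h. The same held for chrX:7712321-7715243 (score 604), with no base covered at 4 h and 47.5% at 0 h, and for chr8:74494557-74498786 (score 833), with none at 4 h and 14.2% at 0 h. A 4 h Ser2P peak lay 2189 bases from the member on chromosome X and 909 bases from that on chromosome 8. Ser5P was called at both times over chr9:39999273-40001888 (score 658), with 85.6% covered at 4 h and 65.9% at 0 h, and over chr7:148253597-148257039 (score 576), with 62.8% covered at 4 h and 100% at 0 h. The last of the 10, chr17:6450042-6456814 (score 572), was the widest member at 6773 bp and had no Ser5P peak at either time. Of these 10 members, 3 overlapped a 4 h Ser5P peak and 7 a 0 h Ser5P peak.

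Among the 10 widest members, 4 were also in the 10 by score. The other 6 were chr8:19859393-19865637, chr4:146889620-146895308, chr11:117584631-117590037, chr4:146651308-146655769, chrX:103159690-103164106 and chr17:15140141-15144494. Scores of the 10 widest went from 84.1 to 1206, so wide members could score low. The lowest of them, chr4:146651308-146655769 at 4462 bp, had 88.1% of its bases under Ser5P peaks at 4 h and 80.4% at 0 h. In contrast, at chr17:15140141-15144494 Ser5P peaks covered 41 bases at 4 h and 83.8% of the region at 0 h. Of the 10 widest, 3 overlapped a 4 h Ser5P peak and 4 a 0 h Ser5P peak.

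A smaller share of members than of shared peaks overlapped Ser5P peaks, which the rule did not use, at both times. At 4 h, 441 members overlapped a Ser5P peak, 17.3% (exact binomial 95% interval 15.9 to 18.9), against 1592 shared peaks, 47.2% (45.5 to 48.9), and 34.4% of all 0 h Ser2P peaks. At 0 h, 687 members did so, 27.0% (25.3 to 28.8), against 1805 shared peaks, 53.5% (51.8 to 55.2), and 42.1% of all 0 h Ser2P peaks. Such intervals cover counting error only and take neighbouring peaks as independent, which they are not. No Ser5P peak at either time lay over 1777 members, or 69.9%, against 1390 shared peaks, or 41.2%, and 53.5% of all 0 h Ser2P peaks. Peaks only at 4 h came close to members, with 68.3%, against 56.1% of all 4 h Ser2P peaks. The median distance to the nearest Ser5P peak was 8579 bases at 4 h and 6066 bases at 0 h for members, and 524 bases at 4 h and 0 bases at 0 h for shared peaks.

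Where Ser5P was called over a member at 0 h, it was often not called there at 4 h. Of the 687 members with a 0 h Ser5P peak, 325 had no 4 h Ser5P peak, 47.3% (43.5 to 51.1), against 390 of 1805 shared peaks, 21.6% (19.7 to 23.6), and 28.7% of all 0 h Ser2P peaks with a 0 h Ser5P peak. The opposite pattern was rarer in members: of the 1856 with no Ser5P peak at 0 h, 79 had one at 4 h, 4.26% (3.38 to 5.28), against 177 of 1567 shared peaks, 11.3% (9.77 to 13.0), and 7.48% of all 0 h Ser2P peaks with no 0 h Ser5P peak. These shares depend on which peaks are counted. Over all members, 12.8% (11.5 to 14.1) had a Ser5P peak at 0 h and not at 4 h, against 11.6% (10.5 to 12.7) of shared peaks and 12.1% of all 0 h Ser2P peaks, so members did not stand out by that count, having fewer 0 h Ser5P peaks to begin with. In the 4 h list, 1086 of the 4060 peaks only at 4 h had a 4 h Ser5P peak. Of these, 446 had no 0 h Ser5P peak, or 41.1% (38.1 to 44.1), against 174 of 1478, or 11.8% (10.2 to 13.5), for the 4 h Ser2P peaks that overlap a 0 h peak. Over all 2564 4 h Ser2P peaks with a 4 h Ser5P peak, 24.2% had none at 0 h. These shares of the 4 h list were not split by width or score. Among Ser2P peaks with a Ser5P peak at their own time, those called at 1 time alone thus more often lacked Ser5P at the other time, in both lists.

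Since wide peaks have more bases with which to overlap, the Ser5P shares were also read within quartiles of width. In the widest quartile, 1728 to 20123 bp, a 4 h Ser5P peak lay over 22.2% of 194 members against 59.8% of 1285 shared peaks, and a 0 h Ser5P peak over 47.9% of members against 69.3% of shared peaks. In the narrowest quartile, 289 to 733 bp, the 4 h shares were 14.0% of 973 members and 33.8% of 506 shared peaks, and the 0 h shares were 18.7% of members and 38.1% of shared peaks. Among Ser2P peaks with a 0 h Ser5P peak, the share with none at 4 h was higher for members in all 4 quartiles. From narrow to wide, it was 45.1%, 41.2%, 51.7% and 55.9% for members and 29.0%, 24.5%, 22.8% and 18.5% for shared peaks. Within the 4 quartiles by Ser2P score the same share was 42.6%, 47.6%, 46.3% and 59.1% over members and 30.0%, 28.7%, 25.1% and 16.6% over shared peaks, from low to high. The highest score quartile rests on 52 of 88 members and 158 of 950 shared peaks.

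**Figure D3:**
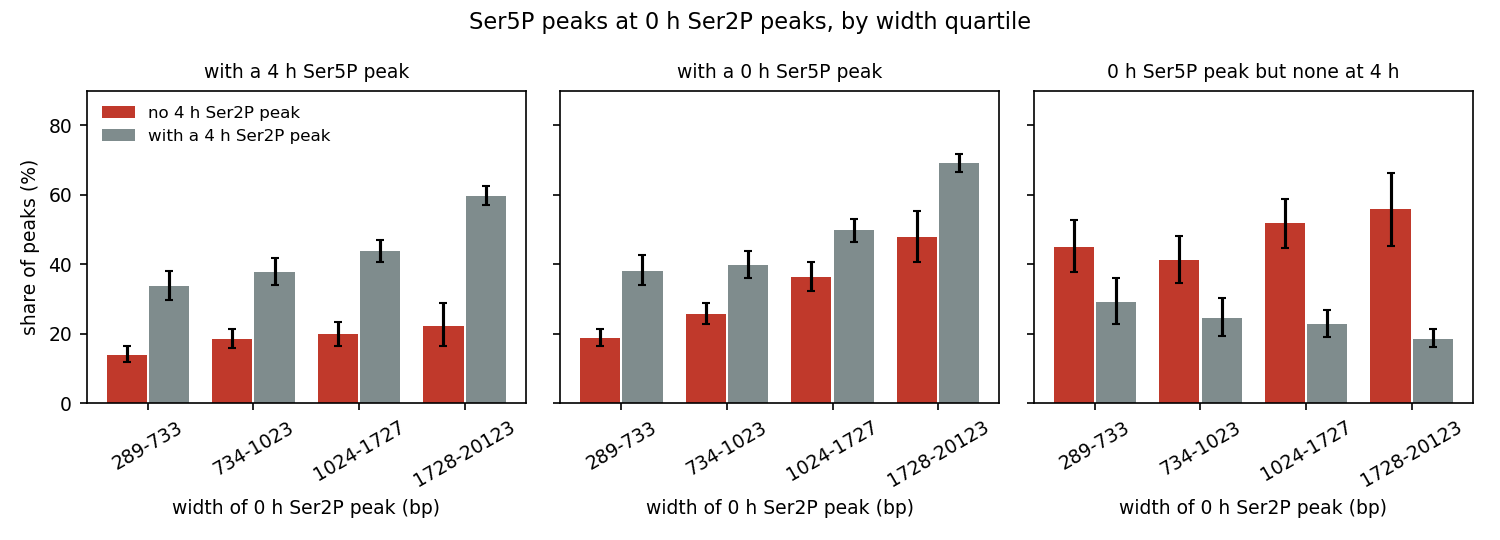
Share (y axis, %) of 0 h Ser2P peaks that overlap a 4 h Ser5P peak (left), a 0 h Ser5P peak (middle), or, among those with a 0 h Ser5P peak, no 4 h Ser5P peak (right), by quartile of Ser2P peak width in bp (x axis). Red bars are members, grey bars shared peaks, and error bars exact 95% binomial intervals. Members sit lower in the left and middle panels and higher in the right panel in each quartile, for example 55.9% of members against 18.5% of shared peaks at the right end.

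The score of the Ser5P peak moved with this result. Counted over Ser5P peaks rather than Ser2P peaks, 277 of the 571 0 h Ser5P peaks that overlap members alone had no 4 h Ser5P overlap, 48.5% (44.3 to 52.7), against 403 of 1606 that overlap shared peaks alone, 25.1% (23.0 to 27.3), and 2900 of 12540 that overlap no 0 h Ser2P peak, 23.1%. Over all 14809 0 h Ser5P peaks, 3591 had none, or 24.2%. Set apart were 92 that overlap both a member and a shared peak, of which 11, or 12.0%, had none. The median score of those over members alone was 121, against 183 for those over shared peaks alone. By quartile of Ser5P score, from low to high, the share with no 4 h overlap was 83.5%, 75.9%, 44.5% and 4.71% over members and 62.4%, 45.1%, 26.0% and 2.12% over shared peaks. Ser5P peaks away from Ser2P had 50.3%, 29.1%, 8.37% and 0.654%, and all 0 h Ser5P peaks together 52.5%, 31.8%, 11.5% and 1.19%. The order of the 3 classes was thus the same in each quartile, but in the top quartile nearly all Ser5P peaks were called again at 4 h whatever the Ser2P peak did, and the members' interval there is wide for 170 peaks. This division by Ser5P score was chosen after the data had been seen.

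**Figure D4:**
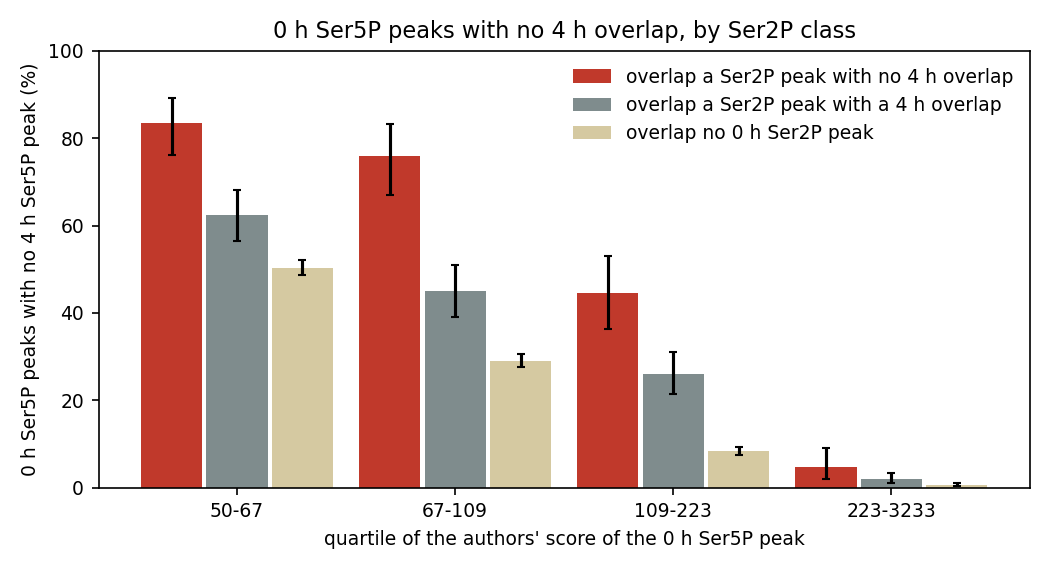
Share of 0 h Ser5P peaks with no overlapping 4 h Ser5P peak (y axis, %) by quartile of the authors' score of the 0 h Ser5P peak (x axis). Colours give the class of the 0 h Ser2P peak under the Ser5P peak: a member (red), a shared peak (grey) or none (tan). Bars are exact 95% binomial intervals. The share goes down from 83.5% to 4.71% over members and from 62.4% to 2.12% over shared peaks along the quartiles.

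Members with a Ser5P peak occurred at every distance from 4 h Ser2P. A 4 h Ser5P peak lay over 22.0%, 19.7%, 13.6% and 15.0% of members from the nearest gap class to the farthest, and a 0 h Ser5P peak over 30.5%, 33.1%, 23.7% and 17.9%. Of those with a 0 h Ser5P peak, 41.0% of 139, 50.2% of 277, 52.1% of 192 and 36.7% of 79 had none at 4 h. The last 4 shares have overlapping intervals, so no order with distance can be read from them.

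Members lay next to other members more often than shared peaks did. Another 0 h Ser2P peak was within 10 kb of 1411 members, 55.5%, against 2150 shared peaks, 63.8%, and 60.2% of all 0 h Ser2P peaks. The lower share in members was seen among the lower-scoring and narrower peaks. Below the median score, 53.2% of members and 68.7% of shared peaks had such a neighbour, against 61.1% of members and 61.2% of shared peaks at or above it. Below the median width the shares were 53.2% of members and 68.0% of shared peaks, against 60.9% of members and 61.6% of shared peaks at or above it. This division, with neighbours taken from the whole 0 h list, was chosen after the data had been seen. For the members with such a neighbour, the nearest one was itself a member in 810 cases, 57.4% (54.8 to 60.0). Of shared peaks with a neighbour, the nearest was a member in 525 cases, 24.4% (22.6 to 26.3), against 37.5% over all 0 h peaks with a neighbour. The rule itself makes neighbours alike where a 4 h peak spans several 0 h peaks.

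When 0 h Ser2P peaks at most 10 kb apart were joined, 3604 runs resulted. Members alone made up 1356 runs, which held 1644 members, 64.6% of all. Of these runs, 1132 were single peaks, and 2 held 6 members, 1 held 5, 9 held 4 and 35 held 3. Shared peaks alone made up 1651 runs, which held 2285 of the 3372 shared peaks, and 1222 of those runs were single peaks. Single peaks made up 2354 of all 3604 runs. Runs of 1 kind, most of them single peaks, were thus no trait of members in particular. A further 597 runs mixed 899 members with shared peaks. In runs without any 4 h Ser2P peak in their span lay 1616 members, or 63.5%. The rule sets most of this count, since a run of 1 member cannot hold a 4 h Ser2P peak, and 1132 runs were of that kind.

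Along chr16:91619073-91637545, 18.5 kb, 6 members with scores from 54.7 to 227 covered 32.5% of the run. It had no 4 h Ser2P peak, and the nearest was 19134 bases away or more for each member. Ser5P had no peak there at 4 h and 4 peaks over 5123 bases at 0 h, which overlapped 4 of the 6 members. Both phosphorylations were thus called at 0 h alone along this run.

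The other run of 6 members, chr9:39994679-40007202, holds the sixth of the top-scoring members and had member scores from 50.8 to 658. Its members were at least 603283 bases from any 4 h Ser2P peak. Ser5P had 2 peaks over 2483 bases at 4 h and 1 peak over 1787 bases at 0 h, so here Ser5P was called at both times without Ser2P at 4 h. Further runs differed again. At chr14:22346453-22371732, 25.3 kb, 5 members scored 50.9 to 101, with 1 Ser5P peak at 4 h, which lay over no member, and none at 0 h. Of the 9 tied runs with 4 members, chr1:63633128-63642127 and chr13:44831431-44840966 come first by position. The run on chromosome 1 had no Ser5P peak at either time and member scores from 52.3 to 207. The run on chromosome 13 was 64.6% covered by 1 Ser5P peak at 4 h and 67.0% by 1 at 0 h, with scores of 2743 at 4 h and 2028 at 0 h that belong to separate lists.

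The run with the most members was a mixed run, named after its values were seen. Along 67.25 kb at chr13:44853109-44920358, which begins just beyond that chromosome 13 run, 13 of 14 0 h Ser2P peaks were members. The same stretch held 7 Ser2P peaks over 9.47% of its bases at 4 h, against 14 over 19.7% at 0 h, with top scores of 82.8 in the 4 h list and 141 in the 0 h list. No Ser5P peak lay in it at either time. Ser2P was thus still called at 4 h in only part of this run, from 10272 to 32738 bases beyond its start. Further along, only 0 h Ser2P peaks were called. Within that part, the 4 h peaks lay largely in the spaces between the 0 h peaks. Such interleaving was uncommon: 212 members, 8.34% (7.29 to 9.48), lay within the span of a 4 h run joined in the same way.

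A second mixed run, also named after its values were seen, was chr10:62320393-62353870, 33.5 kb, with 9 members among 14 peaks. Ser2P had 5 peaks over 4195 bases at 4 h and 14 over 14946 bases at 0 h. Ser5P had 3 peaks over 10592 bases at 4 h and 6 over 26191 bases at 0 h, and it overlapped 2 members at 4 h and 8 at 0 h. Called peaks of both phosphorylations covered fewer bases of this run at 4 h. For Ser2P the rule sets part of this, since the mixed runs were named for holding the most members. The top Ser5P score in the run was 3100 in the 4 h list and 2806 in the 0 h list, which are separate lists. The run chr14:22265207-22294525, also named after its values were seen, begins with the second-ranked member by score. Counting that one, it held 8 members among 10 peaks. Ser2P had 1 peak over 790 bases at 4 h against 10 over 11282 bases at 0 h, while Ser5P covered 4650 bases at 4 h and 1741 at 0 h.

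**Figure D5:**
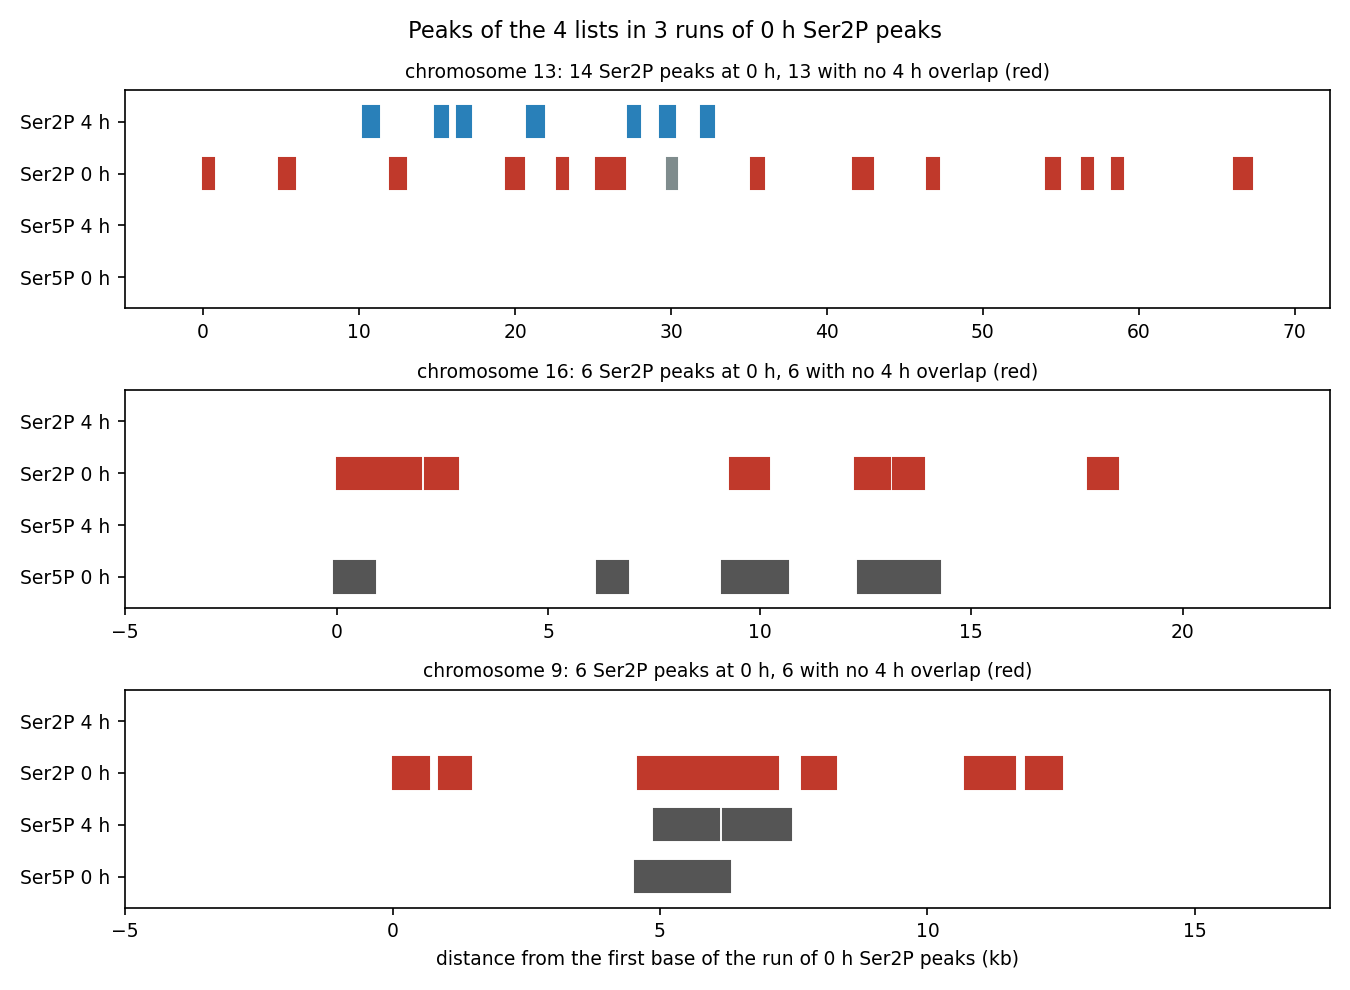
Called peaks of the 4 lists along 3 runs of 0 h Ser2P peaks, drawn to scale by distance from the first base of the run (x axis, kb), each with 5 kb on either side. In the Ser2P 0 h row, red blocks are members and the grey block a shared peak; blue blocks are 4 h Ser2P peaks and dark blocks Ser5P peaks. The upper run has 7 Ser2P peaks at 4 h and 14 at 0 h, with 1 of the 14 overlapped, while the middle and lower runs have no Ser2P peak at 4 h.

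Members were spread over the genome. On the 20 assigned chromosomes, the share of 0 h Ser2P peaks that were members went from 36.4% on chromosome 7 (160 of 439) to 56.9% on chromosome 14 (66 of 116, 47.4 to 66.1), with 51.6% on chromosome 13 (99 of 192) and 45.8% on chromosome X (55 of 120). A few places held many. In 1 Mb windows, a division chosen after the data had been seen, the window chr14:22000001-23000000 held 30 members of 40 peaks, which is a large part of the chromosome 14 count, and chr13:44000001-45000000 held 22 of 23. Ser2P was still called in both windows at 4 h. The window on chromosome 14 held 13 Ser2P peaks at 4 h, 5 of them with no 0 h overlap. That on chromosome 13 held 11 at 4 h, 10 of them with no 0 h overlap. Over the 169 windows with at least 10 peaks, the median share of members was 40%, with quartiles of 30.4% and 50%, and 2 windows had no member.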

How the data were processed

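Each of 4 ChIP-seq libraries (Ser2P and Ser5P, 4 h and 0 h of IAA) had 1 list of peaks. The peaks carry a score deposited by the authors, and peak names carry the word MACS, per the file contents. Bowtie2, bedtools, CASAVA, TopHat2 2.0.11 and build mm9 are named in the submitters' processing notes, with no role given. No source used here gives the caller's version, control or threshold. Coordinates are mm9, 1-based. Overlap means at least 1 shared base, and a gap counts the bases between peaks. Runs join 0 h Ser2P peaks at gaps up to 10 kb. Overlaps and runs were computed in Python 3.11.15 with numpy 2.4.6 and pandas 2.3.3, and tested on simulated data and against bedtools 2.31.1. Shares have exact Clopper-Pearson 95% intervals (scipy 1.17.1). No test was made, with 1 library per list.

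Regions named were the 10 members with the highest score, the 10 widest, the 5 runs of members alone with the most members (ties by chromosome and start) and 3 peaks on each side of the rule's threshold, plus those said to be named after their values were seen. Members and measures were chosen with earlier results of these data known. Peaks were not assigned to genes, since the gene tables used here are on another build. RNA tables, TT-seq and ChIRP samples were not analysed here.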

Additional observations from a re-analysis of the deposited data

How the results depend on the processing

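Under each of 11 alternative settings, members had a lower median width and score than shared peaks, and lower Ser5P shares at both times. Of members with a 0 h Ser5P peak, a higher share than of such shared peaks had none at 4 h. Settings that altered only Ser5P could not change width or score. The share with another 0 h Ser2P peak within 10 kb was lower in members, except at or above the median score or width, where it was slightly higher. Of 138 values, 59 were counted as unchanged and 79 as moved. Shares and medians were judged by the interval of the value reported, and with autosomes alone all stayed within it. The number of members has no interval. Numbers of 2999, 2088, 2730, 1992 and 2482 were counted as unchanged, and 1250, 727 and 747 as moved. Depth is unknown, so how far calling limits each list was not tested. No paired analysis was possible because each list is 1 library. Values counted as moved follow. Near means another 0 h Ser2P peak within 10 kb, counting as neighbours only peaks that the setting keeps. Missing means a 0 h Ser5P peak with none at 4 h.

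With at least 50% of the 0 h peak covered needed for sharing, members were 50.7% of the list, with a median width of 843 bp, score of 66.5 and gap of 4850 bases, Ser5P over 19.0% at 4 h and 29.8% at 0 h, and 57.9% near; shared peaks had a score of 128, 50.1% with 4 h Ser5P and 18.5% missing. With a 4 h peak within 1 kb taken as shared, members were 35.3%, with a gap of 17349 bases and 49.8% near; shared peaks had a width of 1255 bp, a score of 110 (109.8), Ser5P over 44.2% at 4 h and 50.8% at 0 h, and 65.9% near. With 10 kb, members were 1250, or 21.1%, with Ser5P over 14.1% at 4 h and 21.7% at 0 h, a gap of 53452 bases and 32.6% near; shared peaks had a width of 1117 bp, a score of 94.1, Ser5P over 39.8% at 4 h and 47.6% at 0 h, 26.4% missing and 67.6% near.

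At or above the median score, members were 727, or 24.6%, with a width of 1284 bp, a score of 114, Ser5P over 22.1% at 4 h and 40.0% at 0 h, and 42.5% near; shared peaks had 1921 bp, a score of 203, Ser5P over 54.6% at 4 h and 61.9% at 0 h, 19.2% missing and 42.2% near. At or above the median width, members were 747, or 25.2%, with 1351 bp, a score of 108, Ser5P over 20.3% at 4 h and 39.4% at 0 h, 53.1% missing and 43.1% near; shared peaks had 1940 bp, a score of 202, Ser5P over 53.0% at 4 h and 61.1% at 0 h, and 42.1% near. With the 4 h list reduced to as many peaks as the 0 h list, members were 46.2% with a gap of 11792 bases. With peaks within 1 kb joined, members had a width of 835 bp, a gap of 14738 bases and 37.9% near; shared peaks had 1946.5 bp, a score of 148, Ser5P over 49.6% at 4 h and 55.6% at 0 h, and 39.2% near.

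With Ser5P required over at least 50% of a peak, it lay over 14.3% of members at 4 h and 22.2% at 0 h, and over 39.8% of shared peaks at 4 h and 45.4% at 0 h, with 24.2% missing. With Ser5P within 1 kb counted, it lay by 23.1% of members at 4 h and 33.4% at 0 h, with 42.6% missing, and by 52.6% of shared peaks at 4 h and 58.6% at 0 h, with 19.2% missing. With Ser5P lists of equal length, shared peaks had 45.4% with 4 h Ser5P and 23.6% missing. After the data had been seen, near was also counted with neighbours from the whole 0 h list: 53.2% of members and 68.7% of shared peaks below the median score, 61.1% of members and 61.2% of shared peaks at or above it, 53.2% of members and 68.0% of shared peaks below the median width, and 60.9% of members and 61.6% of shared peaks at or above it.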
